A study of Rattus norvegicus with 29 samples.

Results

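The genes described here take part in stopping or slowing cell division, or in its control by p53. They are the cyclin-dependent kinase inhibitors Cdkn1a and Cdkn1b, the stress genes Gadd45a, Gadd45b and Gadd45g, the G-type cyclins Ccng1 and Ccng2, the p53 regulator Mdm2, and the antiproliferative genes Btg1 and Btg2. They were chosen by name: every probe whose gene name on the array design was one of these symbols was taken. That gave 10 genes of the 24267 genes tested, and 14 probes of 41012 on the array, of which 13 were among the 28193 probes tested. The remaining probe, a second one for Cdkn1a, was not well above background on any array. Where a gene had more than 1 tested probe, its brightest probe stood for it, and the other probe is described apart.

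RNA was measured in peripheral blood mononuclear cells, a mixture of lymphocytes and monocytes isolated by density gradient from leg vein blood, of 29 male Wistar rats at 6 months of age, with 1 array per rat. On the cafeteria diet there were 5 fed, 5 fasted and 5 refed rats, and on the control diet 4 fed, 5 fasted and 5 refed rats. For 4 months the cafeteria rats had been offered a palatable, energy-dense diet together with chow, which is used to make rats obese, while control rats had chow only. Fed rats ate freely, fasted rats had no food for 14 h, and refed rats had food again for 6 h after such a fast. Per the labels, 1 control sample was left out by the submitters for its low RNA yield.

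Each array carried the rat's RNA in Cy5 and a pool of all groups in Cy3, so each value is a log2 ratio of the rat over this pool. Dyes were not swapped, so 0 need not be the pool's level for a given probe, and values are compared only between groups for the same probe. Between 53.1% and 66.6% of spots were well above background in Cy5. All 10 main probes were well above background on all 29 arrays and none was saturated. Markers of T cells (12 of 12 on the array), B cells (8 of 8), NK cells (10 of 10) and monocytes (11 of 12) were well above background on all arrays, and Cd163, a monocyte and macrophage receptor, was so on none. So were 9 of 10 erythroid and 5 of 12 neutrophil markers. The erythroid mean log2 ratio ran from -0.49 ± 0.15 in control fed (SD, n = 4) to 0.25 ± 0.55 in cafeteria refed rats (SD, n = 5). The neutrophil mean ran from -0.31 ± 0.099 in control fasted to 0.16 ± 0.50 in cafeteria refed rats (SD, n = 5 each). Of 14 platelet markers 12 were well above background on all arrays, and their mean log2 ratio over the 12 tested was -0.20 ± 0.53 in fed, -0.031 ± 0.28 in fasted and -0.59 ± 0.83 in refed cafeteria rats (SD, n = 5 each). On the control diet it was 0.15 ± 0.65 (SD, n = 4) when fed, 0.68 ± 0.14 when fasted and -0.85 ± 0.44 when refed (SD, n = 5 each). All 12 of these markers fell on refeeding, averaged over the diets, and 0 passed on fasting in the limma fit (3 at an unadjusted p under 0.05). In such a mixture, fewer cells of a type and less RNA per cell cannot be told apart. The images were extracted in 2 software runs that were not balanced over the groups: run 1 held 4 of 5 cafeteria fed, 1 of 5 cafeteria fasted, 1 of 5 cafeteria refed, 2 of 4 control fed, 4 of 5 control fasted and 2 of 5 control refed arrays.

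Cdkn1a encodes p21 and Cdkn1b encodes p27, proteins that bind cyclin-dependent kinases and hold cells before DNA replication. Cdkn1a, Mdm2, Ccng1, Gadd45a and Btg2 are known targets of the tumour suppressor p53, and Cdkn1b, Gadd45a and Ccng2 are known targets of FOXO factors, which insulin signalling keeps out of the nucleus. Btg1 and Btg2 bind the CCR4-NOT complex, which shortens the poly(A) tails of mRNA, and are known for keeping lymphocytes in a resting state.

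Averaged over both diets, Cdkn1a and Gadd45a were higher and Ccng2 lower in fasted than in fed rats, and in refed against fasted rats the signs were opposite. In fasted against fed cafeteria rats, 2 of the 10 genes passed the test, where 0.857% of all genes did, and both rose: Cdkn1a and Gadd45a. In fasted against fed control rats, 0 of the 10 passed in the limma fit, where 0.177% of all genes did. At an unadjusted p under 0.05 there was 1, Gadd45a. The same threshold gave 2813 of all 24267 genes, so 1 of 10 is near the share of all genes. In the fasting difference averaged over both diets, 3 of the 10 passed, against 4.1% of all genes: Cdkn1a and Gadd45a rose and Ccng2 fell. In refed against fasted rats, 1 gene passed in cafeteria rats (Cdkn1a, against 1.41% of all genes) and 1 in control rats (Gadd45a, against 9.33% of all genes, so that 1 in 10 is close to the share of all genes). Averaged over both diets, the same 3 genes passed on refeeding as on fasting, against 13.5% of all genes. The fasting and refeeding comparisons share the fasted rats, so their opposite signs are not independent of each other.

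The median fasting change of the 10 genes, averaged over the diets, was 0.11, beside 0.0055 over all genes tested, with 7 changes above 0 and 3 below. The median refeeding change was -0.090, beside 0.0024 over all genes, with 4 above 0 and 6 below. Each change is a difference between mean log2 ratios, given with its standard error from 1 limma fit of all 6 groups, and a gene passed at a Benjamini-Hochberg adjusted p under 0.05 over all genes. Centring each array on its median in place of the loess step kept the sign of all 10 results that passed and ended every call (adjusted p 0.0536 to 0.95).

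**Figure D1:**
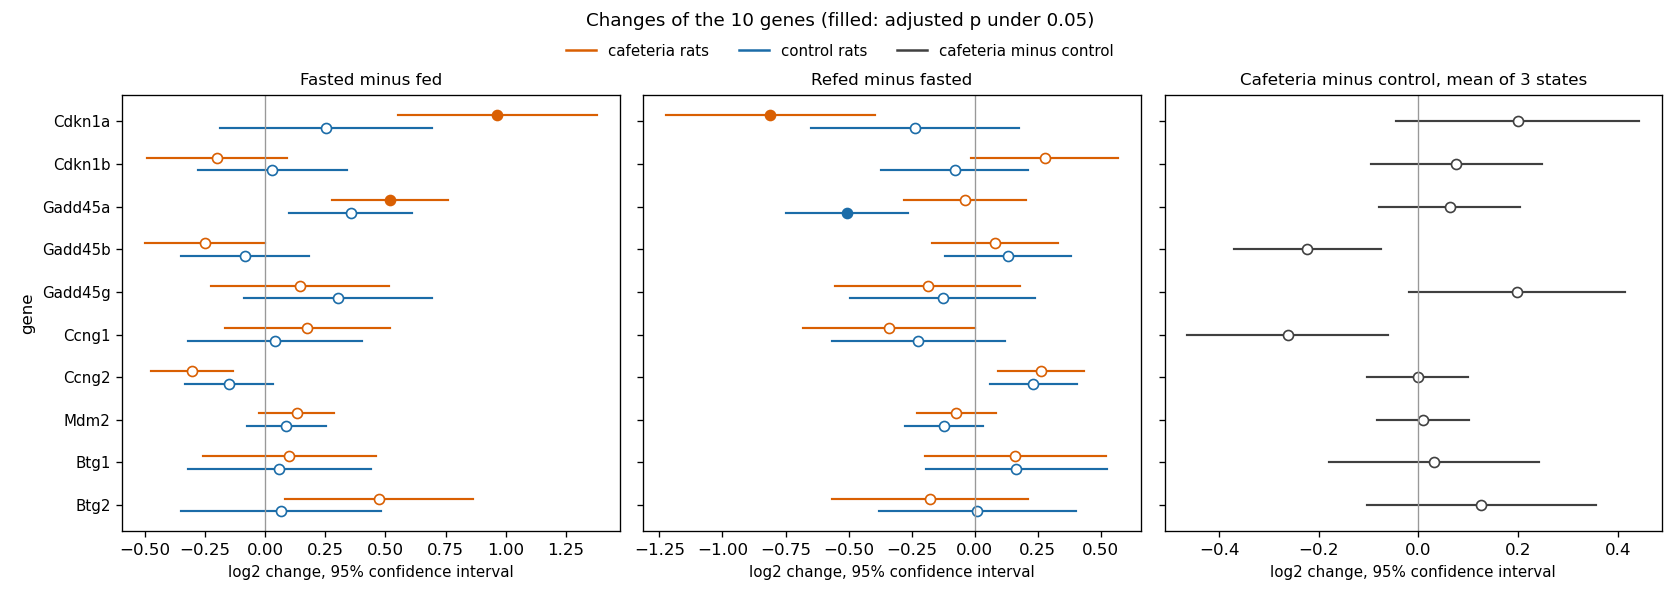
Log2 change of each of the 10 genes with its 95% confidence interval, in fasted minus fed rats, in refed minus fasted rats (orange, cafeteria rats; blue, control rats) and in cafeteria minus control rats averaged over the 3 feeding states (grey). Filled points passed at an adjusted p under 0.05: Cdkn1a and Gadd45a in fasted cafeteria rats, Cdkn1a in refed cafeteria rats and Gadd45a in refed control rats.

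The 250 bases before the annotated start of the 3 genes that passed are shown. In the changes averaged over the diets, Cdkn1a and Gadd45a had the same sign and Ccng2 the opposite one. On refeeding within 1 diet, Cdkn1a passed only in cafeteria rats and Gadd45a only in control rats. The stretches are RefSeq sequences of the GRCr8 assembly, while the array's positions are on rn4. Capitals mark matches on either strand to short motifs.
Cdkn1a (GRCr8 chr20:7150682-7150931, plus strand): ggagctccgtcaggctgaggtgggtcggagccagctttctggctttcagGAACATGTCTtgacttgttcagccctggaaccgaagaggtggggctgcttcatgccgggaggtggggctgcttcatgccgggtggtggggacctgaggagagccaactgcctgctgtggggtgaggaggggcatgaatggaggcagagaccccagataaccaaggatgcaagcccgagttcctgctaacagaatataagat
Gadd45a (GRCr8 chr4:97486800-97487049, minus strand): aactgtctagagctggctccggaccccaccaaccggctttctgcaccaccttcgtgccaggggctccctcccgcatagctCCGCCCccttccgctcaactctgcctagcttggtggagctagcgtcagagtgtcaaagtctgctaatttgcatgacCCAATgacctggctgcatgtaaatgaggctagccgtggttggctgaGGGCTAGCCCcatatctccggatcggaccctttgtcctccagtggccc
Ccng2 (GRCr8 chr14:15097191-15097440, minus strand): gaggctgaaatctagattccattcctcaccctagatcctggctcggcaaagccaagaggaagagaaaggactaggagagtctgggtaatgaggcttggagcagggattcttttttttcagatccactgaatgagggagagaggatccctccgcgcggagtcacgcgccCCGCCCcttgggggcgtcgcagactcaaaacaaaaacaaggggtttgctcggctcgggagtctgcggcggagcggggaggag
The search covered TATAAA, found in many core promoters, GGGCGG, the GC box that Sp1 binds, CCAAT, which NF-Y binds, GTAAACA, the core that FOXO factors bind, TGANTCA, which AP-1 binds, TGACGTCA, the cyclic AMP response element, a glucocorticoid response element and the p53 half-site, both given by name. The p53 half-site was added after these sequences had been read, when the other motifs had given no match in Cdkn1a. Cdkn1a held 1 p53 half-site, beginning 201 bases before the start. Gadd45a held a GC box, a CCAAT box and a p53 half-site, beginning 170, 94 and 48 bases before it. Ccng2 held 1 GC box, 82 bases before it. These matches do not overlap one another. Of 33469 promoter stretches of this length, 30.5% held a GC box, 34% a CCAAT box and 6.64% a p53 half-site. The FOXO core (3.21% of all), the AP-1 site (6.34%), the cyclic AMP element (1.59%), the glucocorticoid element (0.373%) and TATAAA (12.9%) had no match in these 3 windows. The windows of the other genes were searched too. Ccng1, which passed in no comparison, also held a p53 half-site, 232 bases before its start. Mdm2 held no p53 half-site, and it held a FOXO core 209 bases before its start. Among these windows, p53 half-sites were found in Cdkn1a, Gadd45a and Ccng1. Only the 250 bases before each start were searched, and control by p53 was not tested. A match is a description of letters and not a site shown to be bound.

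Cdkn1a was the most variable of the 10 genes, with a range of 2.17 over the 29 arrays. It was also the dimmest by its main probe, with a median Cy5 intensity of 287 and a range of 142 to 947. The next dimmest, Ccng2, had a median of 704. The lowest Cdkn1a intensity, 142 in cafeteria fed rat 1, was near that array's median over all probes, 129. Whether the low intensity widened the spread was not tested. The Cdkn1a probe, on chromosome 20 (chr20:7386596-7386655 on rn4), was printed in 10 spots on each array, whose log2 ratios had a median SD of 0.051 within an array. Where in their transcripts the probes lie was not analysed here. In cafeteria rats its log2 ratio was 0.34, 1.09, 0.25, 1.13 and 0.35 in the 5 fasted rats, against -1.04, -0.077, -0.55, 0.11 and -0.10 in the 5 fed rats. All 5 fasted rats lay above all 5 fed rats, a separation that 2.43% of all genes showed. Cdkn1a rose by 0.96 ± 0.20, which is 1.95-fold (adjusted p = 0.0217).

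The fasted cafeteria rats did not form an even group: 2 of them lay above 1, and the other 3 between 0.25 and 0.35. In the fed rats the lowest value, -1.04, also lay well below the next, -0.55. Leaving out 1 array at a time kept the change between 0.79 and 1.08, and the call ended without any 1 of cafeteria fed rats 1 and 7 or cafeteria fasted rats 5 and 11 (adjusted p up to 0.101). Within extraction run 1 the 1 fasted rat was 1.49 above the mean of 4 fed rats, and within run 2 the 4 fasted rats were on average 0.59 above the 1 fed rat. With the run as a block the change was 0.94 ± 0.22 (adjusted p = 0.0815), and with the slide as a block 0.93 ± 0.23 (adjusted p = 0.142), so the size held and the call did not. From the scanner's own processed signals it was larger, 1.56 ± 0.30 (adjusted p = 0.017).

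In control rats Cdkn1a was -0.42, -0.14, 0.43, -0.23 and 0.39 in fasted rats, against -0.38, -0.055, -0.17 and -0.39 in fed rats. The groups overlapped: 2 fasted rats lay above all fed rats, and 1 fasted rat lay below all of them. The change was 0.25 ± 0.21 (adjusted p = 0.713). The test of the difference between the diets' fasting responses gave 0.71 ± 0.29 for Cdkn1a (adjusted p = 1, unadjusted p = 0.0226), and 0% of all genes passed it, so a larger response in cafeteria rats was not shown over all genes. In that test 775 of all 24267 genes had an unadjusted p under 0.05. Averaged over both diets the fasting change was 0.61 ± 0.15 (adjusted p = 0.0159), and it passed without each of the 29 arrays in turn and with run (0.60, adjusted p = 0.0236) or slide (0.67, adjusted p = 0.0208) as a block. From the processed signals it was 1.07 (adjusted p = 0.00446). Within run 1 the control difference was 0.29 (4 fasted, 2 fed rats), and within run 2 it was 0.50 (1 fasted, 2 fed rats).

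After 6 h of food, Cdkn1a was -0.14, 0.091, -0.23, -0.30 and -0.31 in refed cafeteria rats, all of them below the 5 fasted rats, as 3.31% of all genes were on one side or the other. It was lower than in fasted rats, having dropped by 0.81 ± 0.20, 1.75-fold (adjusted p = 0.0402). The difference between refed and fasted rats was -1.23 within run 1 (1 rat each) and -0.71 within run 2 (4 rats each), and the call held with run as a block (-0.81, adjusted p = 0.0465). It ended when the mean of the platelet markers was a covariate (-0.78, adjusted p = 0.0717) and without any 1 of 6 arrays, cafeteria fasted rats 5 and 11 or cafeteria refed rats 3, 9, 12 and 15 (adjusted p up to 0.142). In refed control rats the values were -0.13, -0.10, -0.63, -0.24 and -0.054, and the change was -0.24 ± 0.20 (adjusted p = 0.543). Averaged over the diets Cdkn1a fell by 0.52 ± 0.14 (adjusted p = 0.0132), and with the platelet covariate the change was -0.47 (adjusted p = 0.206). From the processed signals it was -0.84 (adjusted p = 0.00764).

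Ordered by its mean, Cdkn1a was lowest in cafeteria fed rats (-0.33 ± 0.46, SD), then control fed (-0.25 ± 0.16), control refed (-0.23 ± 0.23), cafeteria refed (-0.18 ± 0.17), control fasted (0.0049 ± 0.38) and cafeteria fasted rats (0.63 ± 0.44). The 4 fed and refed means lie within 1 SD of each other. Fasted cafeteria rats were above fasted control rats by 0.63 ± 0.20, which did not pass (adjusted p = 0.134), and the 2 highest control rats lay inside the range of the cafeteria rats. That difference was 1.18 within run 1 (1 cafeteria, 4 control rats) and 0.13 within run 2 (4 cafeteria rats, 1 control rat).

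**Figure D2:**
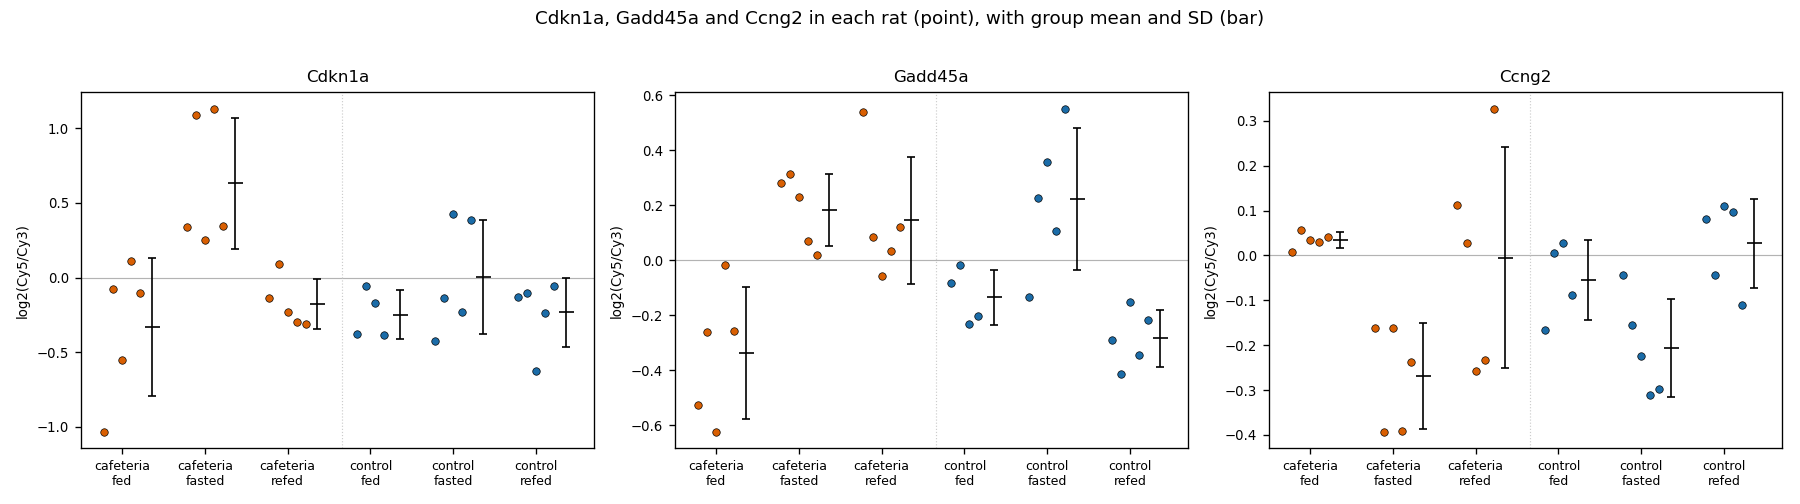
Log2 ratio of Cdkn1a, Gadd45a and Ccng2 over the pool (y axis) in each rat (points) by diet and feeding state, with the group mean and SD (bars; n = 4 in control fed rats, 5 elsewhere). Fasted cafeteria rats do not overlap fed cafeteria rats in the 3 panels, upward for Cdkn1a and Gadd45a and downward for Ccng2. Of all genes 2.43% separated so in either direction. For Gadd45a the gap is narrow, and the Ccng2 change in cafeteria rats did not pass in the limma fit (adjusted p = 0.0785).

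Cdkn1b, the p27 gene, did not pass in any of the 14 comparisons by its brightest probe (chr4:171846350-171846409, 10 spots). Its group means lay between -0.049 ± 0.23 in cafeteria fasted and 0.23 ± 0.19 in cafeteria refed rats (SD, n = 5 each). Its largest fasting or refeeding change, averaged over the diets, was 0.10 ± 0.10 (adjusted p = 0.586) on refeeding, with an interval of -0.11 to 0.31. In cafeteria rats the refeeding change was 0.28 ± 0.14 (adjusted p = 0.399) and in control rats -0.078 ± 0.14 (adjusted p = 0.803). The values of the refed cafeteria rats, 0.55, 0.25, 0.18, 0.059 and 0.11, overlapped those of the fasted rats, 0.15, -0.27, -0.056, 0.21 and -0.28.

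Gadd45a encodes a small stress protein that binds PCNA and p21 and activates the kinase upstream of p38 and JNK. Its probe lies on chromosome 4 (chr4:96650454-96650513 on rn4). In cafeteria rats its log2 ratio was 0.28, 0.31, 0.23, 0.069 and 0.020 in fasted rats, against -0.53, -0.26, -0.63, -0.017 and -0.26 in fed rats. Every fasted rat lay above every fed rat, with the lowest fasted rat at 0.020 and the highest fed rat at -0.017, in the comparison where 2.43% of all genes separated. Gadd45a rose by 0.52 ± 0.12, 1.43-fold (adjusted p = 0.0296). The difference was 0.67 within run 1 and 0.41 within run 2, with 1 fasted and 4 fed rats and then 4 and 1. The call ended with run (0.52, adjusted p = 0.0932) or slide (0.50, adjusted p = 0.119) as a block, in the authors' deposited values (0.52, adjusted p = 0.0913), and without any 1 of cafeteria fed rats 1, 7 and 13 or cafeteria fasted rats 5, 8 and 11 (adjusted p up to 0.116).

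In control rats Gadd45a was -0.13, 0.22, 0.36, 0.11 and 0.55 in fasted rats, against -0.084, -0.019, -0.23 and -0.20 in fed rats. All 5 fasted rats exceeded the fed mean, and 1 of them lay among the fed rats. The change was 0.36 ± 0.12 (adjusted p = 0.228). Averaged over the diets Gadd45a rose by 0.44 ± 0.085 (adjusted p = 0.00329), the smallest adjusted p of the 10 genes on fasting, and it passed without each of the 29 arrays in turn and with run (0.44, adjusted p = 0.00537) or slide (0.43, adjusted p = 0.00506) as a block. The control difference was 0.28 within run 1 and 0.68 within run 2.

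On refeeding Gadd45a fell in control rats, and its change in cafeteria rats did not pass. In control rats it was -0.29, -0.42, -0.15, -0.35 and -0.22 when refed, and all 5 refed rats lay below all 5 fasted rats, as 10.2% of all genes did in one direction or the other. Gadd45a fell by 0.51 ± 0.12 there (adjusted p = 0.00599), with -0.49 within run 1 and -0.79 within run 2. The platelet marker mean also fell in these rats, and with it as a covariate the change was -0.49 ± 0.16 (adjusted p = 0.173), nearly the same size with a wider error. In the authors' deposited values it was -0.39 ± 0.16 (adjusted p = 0.0715). In cafeteria rats Gadd45a was 0.54, 0.085, -0.060, 0.035 and 0.12 when refed, overlapping the fasted rats, and the change was -0.038 ± 0.12 (adjusted p = 0.924). The difference between these responses was 0.47 ± 0.17 (adjusted p = 0.64, unadjusted p = 0.00892), so it was not called. Of all 24267 genes 0 passed this test in the limma fit, and 1815 had an unadjusted p under 0.05.

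Set against the control diet in the refed state, all 5 refed cafeteria rats lay above all 5 refed control rats in Gadd45a, where 2.05% of all genes separated, with a difference of 0.43 ± 0.12 (adjusted p = 0.135). The difference of refed minus fed rats was 0.48 ± 0.12 (adjusted p = 0.913) in cafeteria rats, with an unadjusted p of 0.000339, and -0.15 ± 0.12 (adjusted p = 1) in control rats. In neither refed against fed comparison did any gene of the array pass in the limma fit, while 1035 genes in cafeteria rats and 1420 in control rats had an unadjusted p under 0.05. Averaged over the diets, Gadd45a fell on refeeding by 0.27 ± 0.083 (adjusted p = 0.0272). That call ended without any 1 of control fasted rats 8 and 14 or control refed rat 6 or cafeteria refed rat 9 (adjusted p up to 0.0609), with the platelet covariate (-0.26, adjusted p = 0.222) and in the deposited values (-0.22, adjusted p = 0.166).

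Gadd45b and Gadd45g, close relatives of Gadd45a that activate the same kinase, did not pass in any comparison. Gadd45b (chr7:10289049-10289076) had a fasting change of -0.25 ± 0.12 (adjusted p = 0.478) in cafeteria rats and -0.082 ± 0.13 (adjusted p = 0.877) in control rats, with a sign opposite to that of Gadd45a. Its values in fasted cafeteria rats were -0.066, -0.068, -0.29, -0.26 and -0.36, against 0.14, 0.064, -0.050, -0.14 and 0.18 in fed cafeteria rats. All fasted rats lay below the fed mean and the groups overlapped. Averaged over the 3 feeding states, the difference of cafeteria minus control rats in Gadd45b was -0.22 ± 0.072 (adjusted p = 0.0945), the one with the smallest adjusted p among the 10 genes.

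Gadd45g (chr17:19231059-19231118) had a fasting change of 0.15 ± 0.18 (adjusted p = 0.882) in cafeteria rats and 0.30 ± 0.19 (adjusted p = 0.58) in control rats. In control rats all 5 fasted rats, between -0.21 and 0.39, exceeded the mean of the fed rats, which lay between -0.58 and -0.090. Refed cafeteria rats were the most spread, between -0.53 and 0.78 (SD 0.55), against 0.028 and 0.40 in fasted cafeteria rats.

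The G-type cyclins differ from the cyclins that drive division, and both are linked to arrest of the cell cycle. Ccng2 (chr14:16345533-16345592) moved against Cdkn1a and Gadd45a. In cafeteria rats its log2 ratio was -0.16, -0.39, -0.16, -0.39 and -0.24 in fasted rats, against 0.0083, 0.056, 0.035, 0.029 and 0.042 in fed rats. The 5 fed rats were nearly alike, with an SD of 0.018, and all 5 fasted rats lay below them, a separation that 2.43% of all genes showed in one direction or the other. The change was -0.30 ± 0.084 (adjusted p = 0.0785) in cafeteria rats and -0.15 ± 0.089 (adjusted p = 0.547) in control rats, where fasted rats had -0.044, -0.16, -0.22, -0.31 and -0.30, against -0.17, 0.0044, 0.028 and -0.089 in fed rats. Averaged over the diets Ccng2 fell by 0.23 ± 0.061, 1.17-fold (adjusted p = 0.0306). That call ended without any 1 of 7 arrays, control fed rats 4 and 7 or control fasted rats 11 and 14 or cafeteria fed rat 7 or cafeteria fasted rats 5 and 11 (adjusted p up to 0.067), and held with run as a block (-0.23, adjusted p = 0.0375). From Cy5 alone the change was -0.34 (adjusted p = 0.0448).

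On refeeding, Ccng2 was 0.11, 0.028, -0.26, -0.23 and 0.33 in cafeteria rats and 0.081, -0.044, 0.11, 0.098 and -0.11 in control rats. In each diet all 5 refed rats lay above the mean of the fasted rats, and the groups overlapped. The changes were 0.26 ± 0.084 (adjusted p = 0.12) in cafeteria rats and 0.23 ± 0.084 (adjusted p = 0.0799) in control rats, and averaged over the diets Ccng2 rose by 0.25 ± 0.059 (adjusted p = 0.005). It passed without each of the 29 arrays in turn, and the platelet covariate gave 0.28 ± 0.081 (adjusted p = 0.0563). From Cy5 alone, without the pool, it was 0.25 ± 0.094 (adjusted p = 0.0823). Within run 2, which held 4 refed and 4 fasted cafeteria rats, the difference was 0.20, and within run 1, with 2 refed and 4 fasted control rats, it was 0.20.

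Ccng1 (chr10:25778638-25778912), a p53 target, did not pass in any comparison. Its fasting change was 0.18 ± 0.17 (adjusted p = 0.83) in cafeteria rats and 0.041 ± 0.18 (adjusted p = 0.962) in control rats. Its refeeding change was -0.34 ± 0.17 (adjusted p = 0.378) in cafeteria rats and -0.22 ± 0.17 (adjusted p = 0.473) in control rats. The refed cafeteria rats had -0.63, 0.29, 0.23, -0.32 and -0.44, so 3 of them lay below all fasted cafeteria rats, which lay between 0.098 and 0.26, and 1 above them. Averaged over the feeding states the diet difference was -0.26 ± 0.098 (adjusted p = 0.171). The dimmer probe of Ccng1 gave -0.049 ± 0.040 (adjusted p = 0.612) for that difference and did not pass in any comparison. Its fasting change was -0.15 ± 0.069 in cafeteria rats, opposite in sign to the brighter probe, and 0.11 ± 0.073 in control rats. Its refeeding change was -0.040 ± 0.069 in cafeteria rats and -0.14 ± 0.069 in control rats. Over the arrays the 2 probes had a correlation of 0.39.

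**Figure D3:**
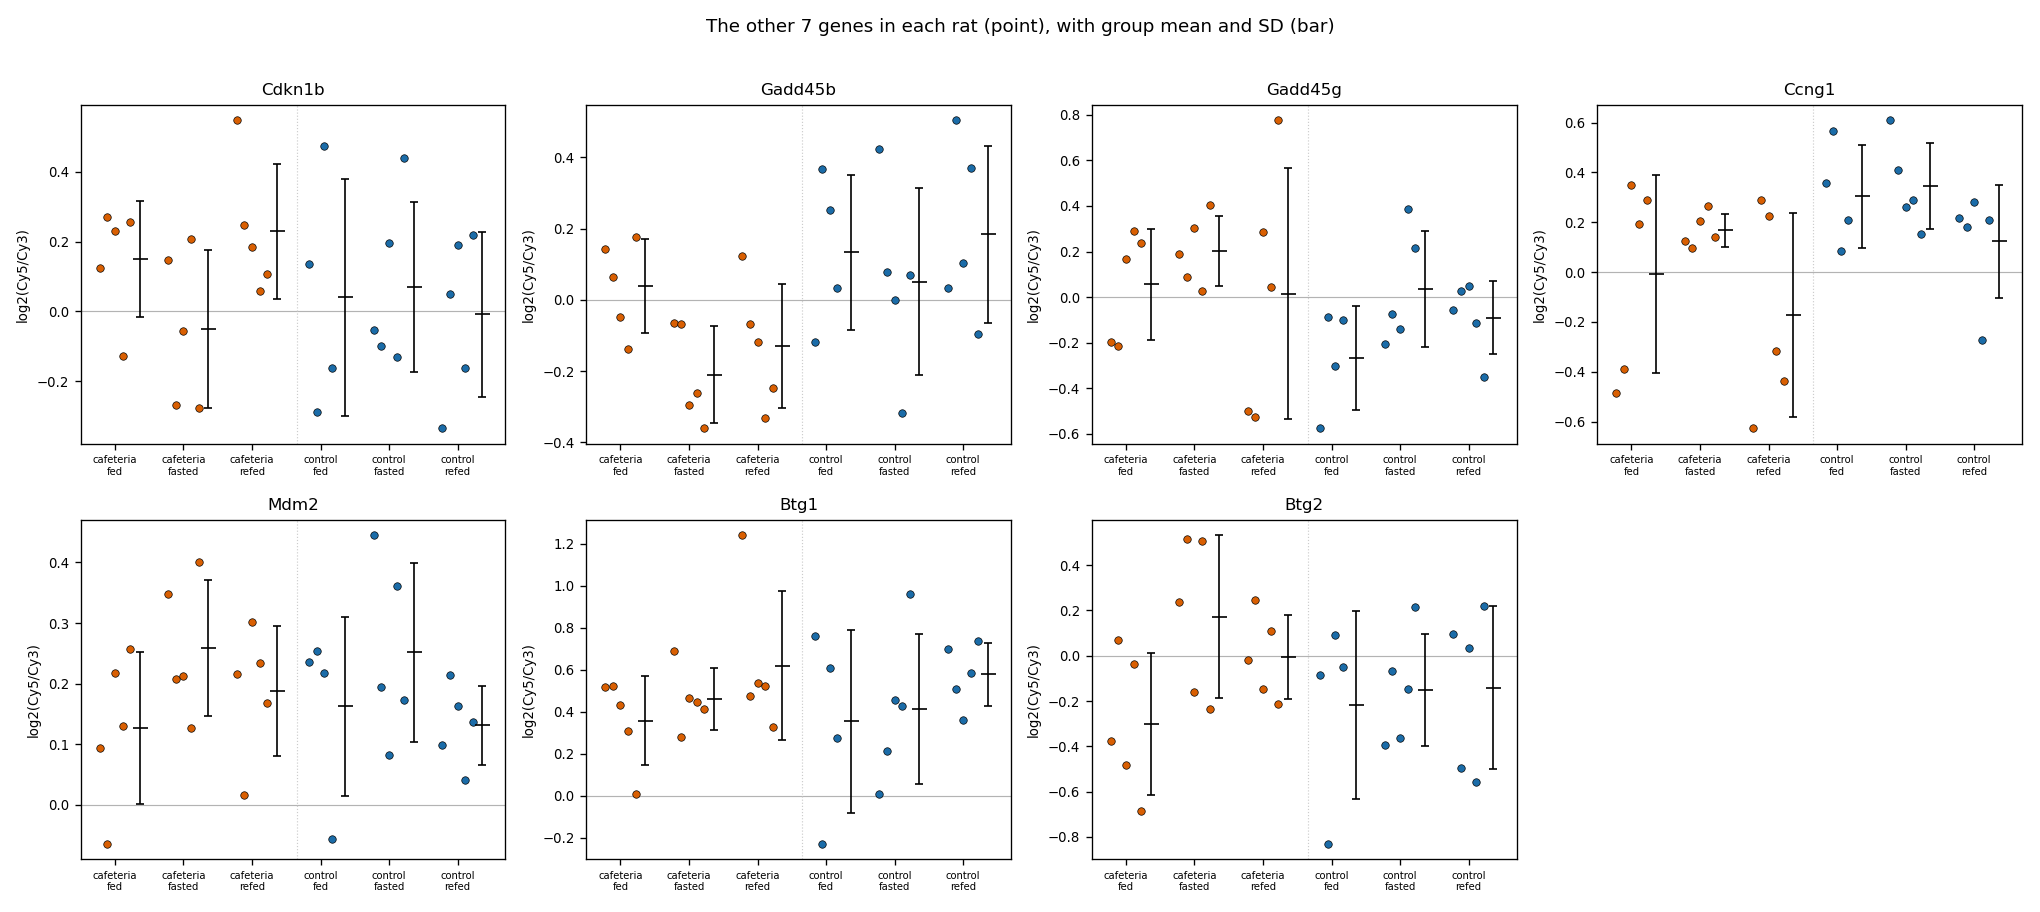
Log2 ratio over the pool (y axis) of the other 7 genes by their brightest probe in each rat (points), with the group mean and SD (bars; n = 4 in control fed rats, 5 elsewhere). None of these genes passed in any of the 14 comparisons by this probe, and Gadd45g spreads from -0.53 to 0.78 in refed cafeteria rats.

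Mdm2 encodes the ubiquitin ligase that degrades p53 and is itself switched on by p53. Its probes had changes of the same sign, averaged over the diets, but only the dimmer one passed, and the difference between them was not tested. By the brighter probe (chr7:56996880-56996939 on rn4) it was the steadiest of the 10 genes, with a range of 0.51 over all arrays and changes of 0.11 ± 0.055 (adjusted p = 0.316) on fasting and -0.096 ± 0.054 (adjusted p = 0.27) on refeeding, averaged over the diets. The dimmer probe (chr7:57005501-57005835) spans a longer stretch on the same chromosome, upstream of the brighter one in the direction of the gene. By it, cafeteria rats had 0.031, 0.55, 0.21, 0.52 and 0.25 when fasted, against -0.30, -0.021, -0.21, 0.20 and -0.097 when fed. Control rats had 0.87, 0.26, 0.48, 0.27 and 0.25 when fasted, against 0.093, -0.059, -0.056 and -0.015 when fed, with no overlap, as in 4.66% of single probes. In cafeteria rats the groups overlapped, and all 5 fasted rats exceeded the fed mean. The fasting change by this probe was 0.39 ± 0.12 (adjusted p = 0.114) in cafeteria rats and 0.44 ± 0.12 (adjusted p = 0.127) in control rats, so neither diet alone passed. Averaged over the diets this probe rose by 0.42 ± 0.084 (adjusted p = 0.00477), where 3.91% of single probes passed.

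After refeeding the dimmer Mdm2 probe was -0.092, -0.26, -0.021, 0.13 and -0.11 in refed cafeteria rats and 0.25, -0.11, -0.11, -0.20 and -0.052 in refed control rats. All 5 refed control rats lay below all 5 fasted ones (9.96% of single probes separated), and the change was -0.47 ± 0.12 (adjusted p = 0.00934) in control rats, where 9.02% of single probes passed, and -0.38 ± 0.12 (adjusted p = 0.0983) in cafeteria rats. The average over the diets was -0.43 ± 0.082 (adjusted p = 0.00106), where 13.2% of single probes passed. With run as a block the averages were 0.43 on fasting (adjusted p = 0.00382) and -0.40 on refeeding (adjusted p = 0.00127), and with slide 0.45 (adjusted p = 0.0105) and -0.43 (adjusted p = 0.00299). This probe was not refitted with median centring or with the platelet covariate, which ended calls of the main probes. Over the arrays the 2 probes of Mdm2 had a correlation of 0.36. Which transcripts of Mdm2 each probe detects was not tested.

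The probes of Cdkn1b had diet differences of opposite sign, averaged over the states. By the dimmer probe (chr4:171845435-171845494, 1 spot, upstream of the brighter one), the mean was lower in cafeteria rats in each feeding state. Values were 0.046, -0.18, -0.26, -0.83 and -0.66 in cafeteria fed, 0.33, -0.32, -0.54, -0.42 and -0.96 in cafeteria fasted and -0.14, -0.32, -0.56, -0.47 and -0.86 in cafeteria refed rats. They were 0.59, 0.45, 0.84 and 0.070 in control fed, 0.47, 0.38, 0.41, 0.20 and 0.14 in control fasted and 0.41, 0.47, 0.37, 0.16 and 0.29 in control refed rats. Cafeteria and control rats did not overlap in the fed (1.22% of single probes) and refed (2.28%) states, and in the fasted state 1 cafeteria rat, at 0.33, lay among the control rats. Averaged over the states this probe was lower by 0.79 ± 0.11 (adjusted p = 4.42e-05) in cafeteria rats, where 3.93% of single probes passed. By state it was -0.86 ± 0.19 (adjusted p = 0.197) when fed, -0.70 ± 0.18 (adjusted p = 0.0549) when fasted and -0.81 ± 0.18 (adjusted p = 0.0422) when refed, the last where 0.369% of single probes passed. The refed call ended with run (-0.80, adjusted p = 0.065) or slide (-0.70, adjusted p = 0.416) as a block. The average held, at -0.78 with run as a block (adjusted p = 0.000111) and -0.78 with slide (adjusted p = 0.000985). By the brighter probe the difference was 0.076 ± 0.083 (adjusted p = 0.728), with an interval of -0.095 to 0.25. The dimmer probe was not refitted alone with median centring or with the platelet covariate. Over the arrays the 2 probes had a correlation of 0.077, so they hardly varied together. The difference between the probes was not tested.

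**Figure D4:**
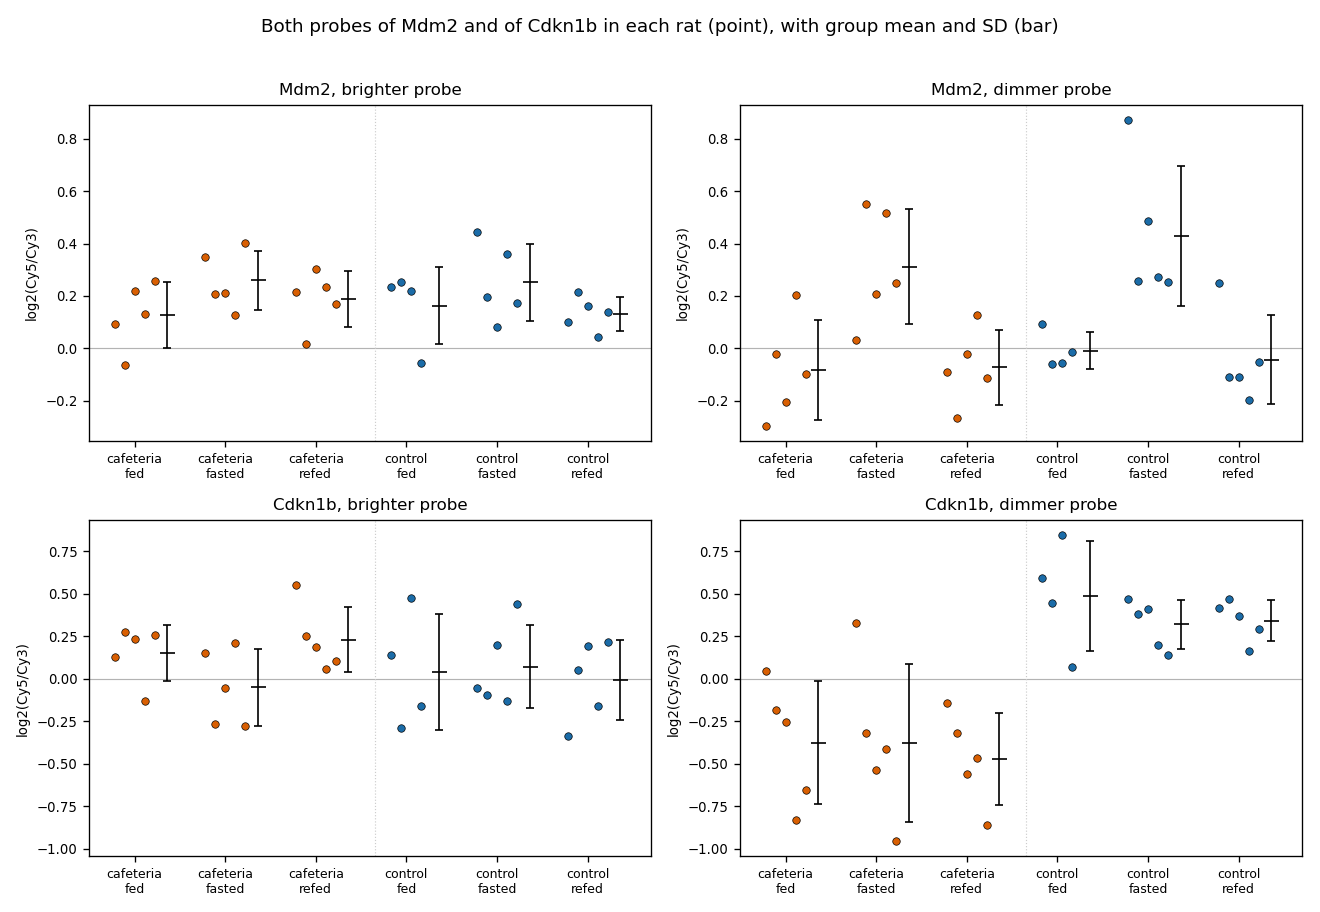
Log2 ratio over the pool (y axis) by the brighter (left) and dimmer (right) probe of Mdm2 (top) and Cdkn1b (bottom) in each rat (points), with the group mean and SD (bars; n = 4 in control fed rats, 5 elsewhere). The dimmer Mdm2 probe has its highest means in fasted rats of both diets, and its fasting change passed only as an average over the diets. The dimmer Cdkn1b probe is low in cafeteria rats, and none of the brighter probes' comparisons passed.

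Btg1 (chr7:34031368-34031427) and Btg2 (chr13:47027022-47027081) did not pass in any comparison. Btg2 had the third largest fasting change of the 10 genes in cafeteria rats, 0.47 ± 0.19 (adjusted p = 0.319), with 0.24, 0.52, -0.16, 0.51 and -0.24 in fasted rats, against -0.38, 0.070, -0.48, -0.035 and -0.69 in fed rats. Of the fasted rats 3 lay above all fed rats and the groups overlapped. In control rats the change was 0.067 ± 0.20 (adjusted p = 0.944), and the difference between the diets was 0.41 ± 0.28 (adjusted p = 1). Btg1 had changes of 0.080 ± 0.13 (adjusted p = 0.826) on fasting and 0.16 ± 0.12 (adjusted p = 0.445) on refeeding, averaged over the diets, with intervals of -0.18 to 0.34 and -0.090 to 0.42.

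Diet alone called none of the 10 genes by their main probes. Cafeteria against control rats gave 0 of 10 in the fed, fasted and refed states and in their average in the limma fit, where 0.00824%, 0.828%, 0.223% and 3.24% of all genes passed. At an unadjusted p under 0.05 there were 0, 2, 2 and 2 of the 10: Cdkn1a and Gadd45b in the fasted state, Gadd45a and Gadd45b in the refed state, and Gadd45b and Ccng1 in the average. Over all 24267 genes the same threshold gave 1098 in the fed state, 3590 in the fasted state, 1941 in the refed state and 3684 in the average, so 2 of 10 is near the share of all genes in the fasted state and the average. The median diet difference of the 10 genes in the average was 0.047, beside 0.0087 over all genes.

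Other genes of these pathways were counted from lists that were chosen with earlier results of these data known, in the changes averaged over both diets, where 4.1% of all genes passed on fasting and 13.5% on refeeding. Of 16 other p53 targets tested, 1 rose on fasting: Plk3, a stress-activated kinase gene, by 0.15 ± 0.040 (adjusted p = 0.0321). On refeeding 3 of them fell: Plk3 by 0.22 ± 0.039 (adjusted p = 0.000617), Plk2 by 0.26 ± 0.064 (adjusted p = 0.00545) and Tp53inp1 by 0.31 ± 0.096 (adjusted p = 0.0278). The median of the list was 0.016 on fasting and 0.050 on refeeding, beside the medians of all genes given above. On refeeding 11 of the 16 changes lay above 0 and 5 below, so the list as a whole did not fall. Of 10 genes for p53 and its regulators, 1 fell on fasting and 2 rose on refeeding: Atm, a kinase gene of the DNA damage response, fell by 0.25 ± 0.068 (adjusted p = 0.0358) on fasting and rose by 0.30 ± 0.066 (adjusted p = 0.00293) on refeeding.

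Of 17 FOXO factors and targets, 2 rose and 1 fell on fasting, with a median of 0.075. Txnip, an inhibitor of thioredoxin, rose by 0.69 ± 0.12 (adjusted p = 0.00156), Irs2, an adaptor of the insulin receptor, rose by 0.50 ± 0.092 (adjusted p = 0.00222), and the repressor gene Bcl6 fell by 0.86 ± 0.11 (adjusted p = 0.000171). On refeeding 3 rose and 3 fell in this list. Of 11 genes that glucocorticoids induce, 5 rose and 1 fell on fasting, with a median of 0.34, and 1 rose and 3 fell on refeeding, with a median of -0.041. Among them Klf9 rose by 0.75 ± 0.13 (adjusted p = 0.00167), Mt1, a metallothionein gene, by 0.50 ± 0.095 (adjusted p = 0.00292) and the clock gene Per1 by 0.60 ± 0.13 (adjusted p = 0.00702) on fasting. Of 14 immediate early and NF-kB genes 3 rose on fasting and 6 fell on refeeding, where Egr1 fell by 1.04 ± 0.24 (adjusted p = 0.00373).

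Of 7 other BTG and TOB genes and CCR4-NOT deadenylases, 3 rose and 1 fell on fasting. The deadenylase gene Cnot6 rose by 0.48 ± 0.091 (adjusted p = 0.00259) and the BTG relative Btg3 by 0.27 ± 0.063 (adjusted p = 0.0128), and Cnot6l, a close relative of Cnot6, fell by 0.30 ± 0.073 (adjusted p = 0.0157). On refeeding 3 of the list rose and 3 fell. Of 7 kinases of the GADD45 pathway, Map3k4, the kinase that GADD45 proteins bind and activate, fell by 0.16 ± 0.045 (adjusted p = 0.0448) on fasting and rose by 0.21 ± 0.044 (adjusted p = 0.00198) on refeeding, when Map2k3 fell by 0.46 ± 0.11 (adjusted p = 0.00657). Of 6 other growth arrest and stress genes, Ppp1r15a, also called Gadd34, rose by 0.31 ± 0.089 (adjusted p = 0.041) on fasting, and 3 fell on refeeding, among them Ddit3 by 0.35 ± 0.085 (adjusted p = 0.00568).

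Genes of division itself did not pass on fasting in the limma fit: 0 of 11 G1 cyclins, CDKs and E2F genes, 0 of 16 proliferation genes and 0 of 8 other CDK inhibitors and pocket proteins, with medians of -0.0026, 0.039 and 0.053. At an unadjusted p under 0.05 there were 1, 3 and 1, where 4058 of all 24267 genes were under it. Only 4.1% of all genes passed on fasting, so 0 is near that share for lists this short. On refeeding 13.5% of all genes passed, and 2 of the 16 proliferation genes did, which is near that share. Top2a fell by 0.39 ± 0.11 (adjusted p = 0.0127) and Pcna by 0.24 ± 0.071 (adjusted p = 0.0202), and the median of that list was -0.11. The retinoblastoma gene Rb1 fell by 0.67 ± 0.16 (adjusted p = 0.00554). Among the G1 genes Cdk2 rose by 0.25 ± 0.050 (adjusted p = 0.00132) and Cdk6 fell by 0.19 ± 0.056 (adjusted p = 0.0219).

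The genes with a symbol whose log2 ratios were most like those of Cdkn1a over the 29 arrays were Zc3h12a, Rasd1, Per1, Fosl2, Nfil3 and Bambi, with Pearson's r of 0.81 to 0.87 and Spearman's rho of 0.71 to 0.86. These arrays share the reference pool, the 2 runs and the group means, so the coefficients are a description and were not tested. The fasting changes of these 6 genes lay between 0.36 and 1.12 in cafeteria rats and between 0.085 and 0.55 in control rats, beside 0.96 and 0.25 for Cdkn1a. Because the genes were picked for their likeness to Cdkn1a over the same arrays, fasting changes like its own follow from the choice.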

How the data were processed

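Amplified RNA of mononuclear blood cells was hybridised to 29 Agilent arrays of 2 colours, 1 male Wistar rat each, the rat's RNA in Cy5 and a pool of all samples in Cy3, with no dye swap, per the labels' protocols. The deposited intensity values are spot signals from Agilent Feature Extraction 9.5.1.1 with positions on rn4, per the file headers. A deposited table of log2 values, called normalized Cy5 signal per the labels, was an alternative. Intensities were background-corrected (normexp, offset 50) and loess-normalized within each array in limma 3.58.1 (R 4.3.3), which gave log2(Cy5/Cy3), and 526 outlier values were left out. Probes well above background on at least 4 arrays were kept, with the brightest probe per gene. One limma fit of 6 groups gave 14 comparisons, adjusted by Benjamini-Hochberg over 24267 genes with a threshold of 0.05. The fit was tested on simulated data. Groups and numbers of rats come from the labels, and the number of arrays limits the precision. The genes and pathway lists were chosen with earlier results of these data known. In each list up to 3 passing genes with the smallest adjusted p could be named. Alternatives were processed signals, median centring, Cy5 alone, the deposited table, the probe filter, the probe summary, slide, extraction run, platelet markers, a replicate block and leaving out each array. Promoter stretches came from a RefSeq table, which held all 10 genes. Proteins and probe sequences were not used here.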

Additional observations from a re-analysis of the deposited data

Results flagged for a closer look

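In 3 of 60 groups of rats examined, 1 gene in 1 group of diet and feeding state at a time, 1 rat lay far from the others by Dixon's criterion, and chance alone flags about 1 in 20 groups. Ccng1 was -0.27 in control refed rat 12, where the other 4 rats lay between 0.18 and 0.28. Mdm2, by its brighter probe, was -0.057 in control fed rat 13, where the other 3 lay between 0.22 and 0.25. Btg1 was 1.24 in cafeteria refed rat 3, where the other 4 lay between 0.33 and 0.54. By these probes none of the 3 genes passed in any of the 14 comparisons; the dimmer probe of Mdm2 did.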

How the results depend on the processing

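The 10 results that passed kept their direction in all 10 alternatives and in all 29 fits that left out 1 array. With median centring, 0 of the 10 genes passed in each comparison that had called any. In fasted against fed cafeteria rats 0 passed with slide or extraction run as a block. In refed against fasted cafeteria rats 0 passed with no filter on probes, and with the platelet marker covariate 0 passed on refeeding in either diet and in their average. With the mean of all probes, 1 passed for diet averaged over the states, where Cdkn1b was -0.36 (adjusted p = 0.0102), against 0.076 by its brightest probe, and 2 passed in refed against fasted control rats. Leaving out 1 array gave 0 to 3 genes for fasting in cafeteria rats and 2 to 3 in the average, 0 to 1 for refeeding in cafeteria rats, 1 to 2 in control rats and 2 to 3 in the average, and 0 to 1 for diet averaged over the states. The causes were not tested, beyond the fewer samples of the left-out fits. Values that did not pass in either setting changed sign in 100 cases among the alternatives, or 210 with the left-out fits, and these are not counted as reversals. Rats with the same number did not deviate together: over 14 pairs r lay between -0.15 and 0.21, with a median of -0.0064 and 2 over 0.1, and 5 of 29 arrays correlated best with their own number. The replicate block was possible for the diet comparisons, where it left the count of genes called at 0. No paired analysis was possible for fasting and refeeding because each number belongs to 1 feeding state. In the deposited table the median of all genes shifted to 0.15 in refed against fasted control rats.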
